A study of Mus musculus with 6 samples.

Results

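The genes described here make cholesterol and fatty acids, or control that synthesis, in lung tumors of mice carrying a mutant human EGFR transgene. They are 31 genes chosen by symbol: 5 regulators, 7 enzymes from acetyl-CoA to farnesyl pyrophosphate, 11 enzymes from squalene to cholesterol, the sterol carrier gene Stard4 and 7 genes of fatty acid synthesis. Members were found by gene name on the array, with Sc4mol also sought under its newer symbol Msmo1, and the brightest probe stood for each gene. A probe was found for 30 of the 31, among 36870 gene names on the array, and Acat2, whose product starts the sterol route, was not analysed here. All 30 were well above background in every tamoxifen and oil reading and entered the test of 20475 genes.

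Cells make cholesterol from acetyl-CoA through mevalonate, isoprenoid units and squalene, and make fatty acids from the same acetyl-CoA through malonyl-CoA. The proteins coded by Srebf1 and Srebf2 are transcription factors held in the endoplasmic reticulum, and they are carried to the Golgi, cut and released to the nucleus when sterol is low. In the lung, alveolar type 2 cells use newly made fatty acids for the phospholipids of surfactant, and alveolar macrophages take up and clear surfactant lipid.

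Every sample came from mice on the C57BL/6J background that carried the floxed allele Ror1f/f, the inducible Cre CAG-CreER and the transgene SPC-hEGFRdel746-750. The Cre is driven by the ubiquitous CAG promoter and the EGFR deletion mutant by the surfactant protein C (SPC) promoter of alveolar epithelium. Tamoxifen, which switches on CreER, or corn oil was given for 4 weeks from 16 weeks of age, and tumors were taken at 20 weeks, so the 3 tamoxifen and 3 oil samples share all 3 alleles and the age. Each tamoxifen sample was hybridised against the oil sample of the same number, called a couple here, on 2 arrays with the dyes exchanged. No sample with tamoxifen but without the Cre was analysed here, so exposure to the drug and action of the Cre cannot be told apart. The labels do not say that the numbered samples are separate animals, so p-values measure the spread between these samples. In tumor pieces, fewer cells of a type and less RNA per cell cannot be told apart.

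Between 51.8% and 58.8% of probes per array and channel, controls left out, were well above background. Across the 20475 genes, log2 ratios from the 2 arrays of couples 1, 2 and 3 correlated with each other at r = 0.76, 0.77 and 0.79, while ratios of different couples correlated at 0.17, 0.12 and -0.02; genes are not independent replicates. Of 12 markers of alveolar type 2 cells, all 12 were well above background in every reading. Lung outside a tumor also holds these cells, so the markers do not tell tumor from other lung tissue. The targeted gene Ror1 went against the labels on its brightest probe, with levels of 9.35, 9.30 and 9.17 under tamoxifen against 8.76, 8.86 and 8.99 under oil in couples 1, 2 and 3 (1.32-fold higher with tamoxifen, limma adjusted p = 0.69). The other Ror1 probe, never well above background, gave log2 ratios of -0.13, -0.07 and -0.08. The labels do not give the floxed exon, so a probe outside it checks nothing, and "tamoxifen" and "oil" below mean the samples so labelled.

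Across the pathway the ratios of tamoxifen over oil lay close to 0, and no member passed the test. Of the 30 members 16 had a mean log2 ratio above 0 and 14 below, with a median of 0.01 against 0.00 over all genes tested, where 48.8% were above 0 and 51.2% below. The median size of a member's mean ratio, in either direction, was 0.10 (0.09 over all genes), and the median SD over the 3 couples was 0.23 (0.17 over all genes). The widest mean ratios were those of Pmvk at -0.88, Hmgcs1 at -0.47 and Mvk at 0.31, all of the mevalonate steps.

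In limma's test over the 3 couples, with Benjamini-Hochberg adjustment over all genes, 0 of 30 members and 0 of 20475 genes had an adjusted p under 0.05 (0%), and adjusted p-values of members ran from 0.69 to 1. At an unadjusted p under 0.05 there were 3 members, against 1436 genes in all (7.01%), with Mvk and Nsdhl higher (as were 614 of all genes) and Pmvk lower (822 of all genes, 4.01%). A fit over 6 arrays that took couples as a random replicate block called 56 genes and no member, or 9 genes and no member once a term for the dye orientation was added, and comparing the channels as separate samples called 1 gene and no member. The sign was the same in all 3 couples for 8 members, 5 higher and 3 lower (30.2% of all genes), and the same on all 6 arrays for 5 members (13.3% of all genes). Those 5 were Scap, Mvk and Nsdhl, which were higher, and Pmvk and Acly, which were lower. Within couples, differences over 1.5-fold were rare. Hmgcs1 was past it on the lower side in couple 1 (3.89% of all genes), Pmvk in couple 2 (2.32%) and in couple 3 (2.57%). On the higher side Tm7sf2 was past it in couple 1 (2.50%), with 0 members in couple 2 (1.98%) and couple 3 (2.45%). The tamoxifen and oil levels did not overlap for 5 members, namely Srebf2, Pmvk and Acly on the lower side and Mvk and Dhcr7 on the higher side (12.3% of all genes). Each of these member counts lies near the share of all genes that did the same.

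**Figure D1:**
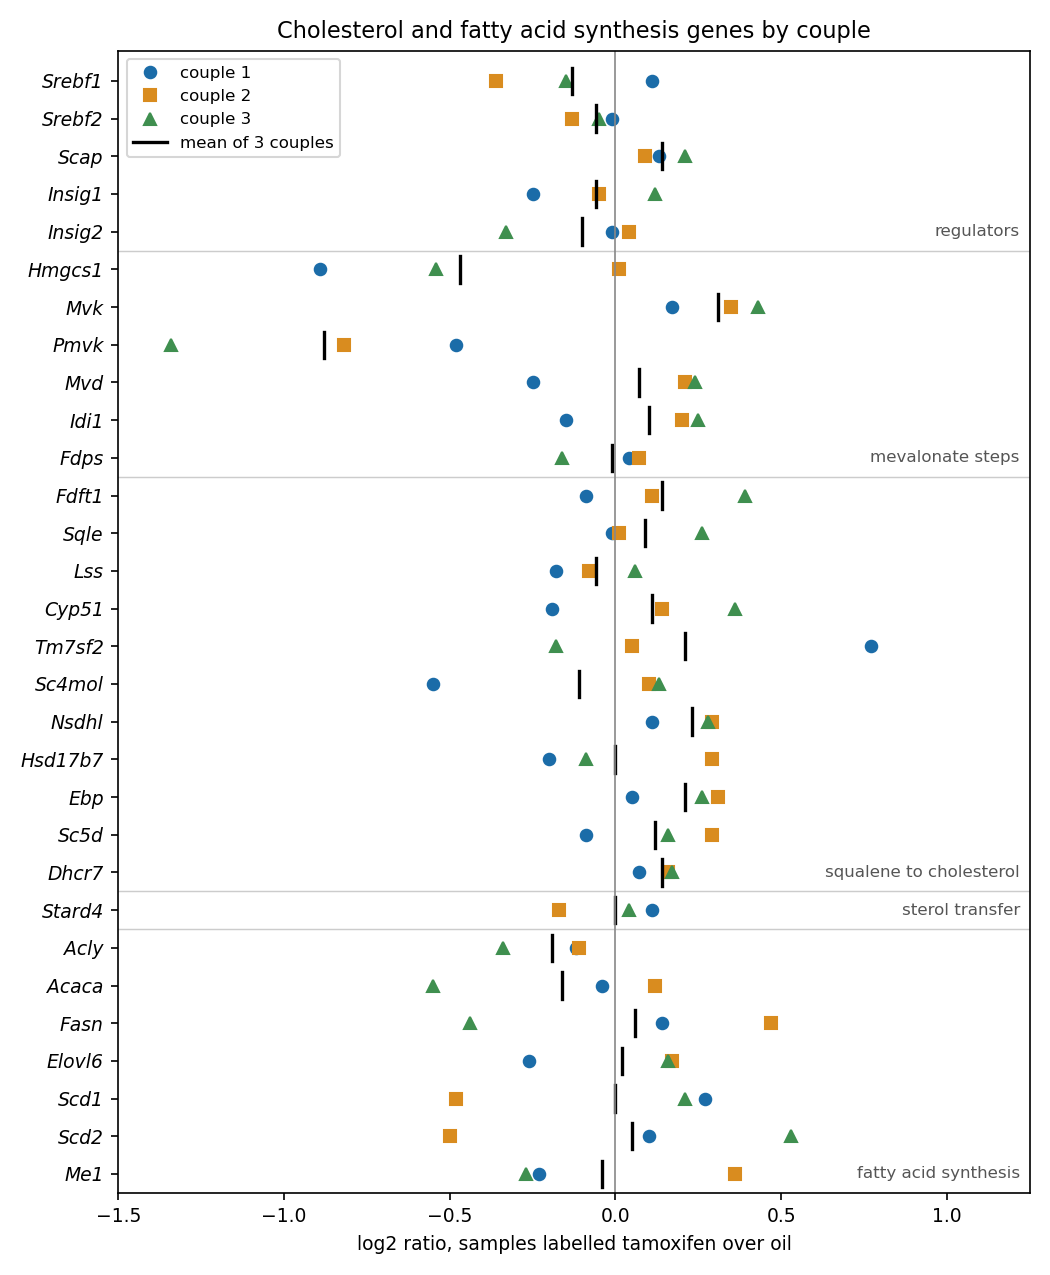
The log2 ratio of tamoxifen over oil (x axis) is shown for each of the 30 members (y axis, by role), with 1 symbol per couple, each the mean of 2 dye-swapped arrays, and a black bar at the mean of 3 couples. Pmvk lies left of 0 in every couple, from -0.48 to -1.34, whereas the fatty acid genes Fasn, Scd1 and Scd2 lie on both sides of 0.

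The 5 regulators stayed within 0.14 of 0 in either direction on average, with 1 mean above 0 and 4 below and a median of -0.06. Srebf1 codes for the transcription factor that favours fatty acid genes. Its level was 13.21, 12.89 and 13.31 in the tamoxifen samples of couples 1, 2 and 3 and 13.10, 13.26 and 13.46 in the oil samples, as normalized log2 intensity. The groups overlapped, since only couple 1 was higher under tamoxifen, and the log2 ratio was -0.13 ± 0.24 (SD, n = 3; limma adjusted p = 0.8). It was -0.25 without couple 1 and -0.02 without couple 2, and -0.23 and -0.04 with tamoxifen in Cy5 and in Cy3 alone. Srebf2 codes for the factor that favours sterol genes. It read 10.96, 10.94 and 10.94 under tamoxifen and 10.97, 11.07 and 10.98 under oil. The groups did not overlap, though the nearest samples were at 10.96 and 10.97, and the ratio was -0.06 ± 0.06 (SD, n = 3; limma adjusted p = 0.86). The other Srebf2 probe gave -0.22, -0.26 and -0.14 in the 3 couples.

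Scap, which escorts these factors to the Golgi, was the regulator with a ratio above 0 on all 6 arrays. Its levels were 11.03, 10.89 and 10.93 under tamoxifen and 10.91, 10.80 and 10.72 under oil, so each couple was higher under tamoxifen although the groups overlapped. The log2 ratio was 0.14 ± 0.06 (SD, n = 3; limma adjusted p = 0.72). Insig1 and Insig2 code for the proteins that hold Scap in the endoplasmic reticulum. Insig1 read 7.45, 7.59 and 7.58 under tamoxifen and 7.70, 7.63 and 7.46 under oil, with a ratio of -0.06 ± 0.18 (SD, n = 3) that became 0.04 without couple 1. Insig2 read 11.12, 11.17 and 11.19 under tamoxifen and 11.13, 11.12 and 11.51 under oil. Its ratio of -0.10 ± 0.20 (SD, n = 3) rested on the high oil sample of couple 3 and was 0.02 without that couple. The Insig2 ratio also differed by dye, at 0.10 and -0.29 with tamoxifen in Cy5 and in Cy3 alone. Both Insig genes had overlapping groups.

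The mevalonate steps held the lowest and the highest ratios of the pathway side by side. Hmgcs1 makes HMG-CoA early in the route, and Mvk, Pmvk and Mvd then phosphorylate and decarboxylate mevalonate to the isoprenoid unit that Idi1 and Fdps handle next. Of the 6 measured genes 3 had a mean above 0 and 3 below, with a median of 0.03. Promoter sequence is shown for Hmgcs1 and Pmvk, the genes with the lowest means, and later for Acly and Cyp51. A form of the sterol regulatory element and the CCAAT box are marked, to be read beside the values.

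The windows are the 250 bases before the RefSeq transcription start on assembly GRCm38.p6, 5′ to 3′ in the direction of the gene. Capitals mark TCACNCCAC, a form of the sterol regulatory element, and CCAAT, the box bound by NF-Y, on either strand.
Hmgcs1, chr13:119690101-119690350, plus strand: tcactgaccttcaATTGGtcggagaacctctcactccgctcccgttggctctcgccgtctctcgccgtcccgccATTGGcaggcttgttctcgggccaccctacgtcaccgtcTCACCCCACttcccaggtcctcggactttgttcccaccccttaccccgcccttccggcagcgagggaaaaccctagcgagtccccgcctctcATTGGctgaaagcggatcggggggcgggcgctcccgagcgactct
Pmvk, chr3:89454291-89454540, plus strand: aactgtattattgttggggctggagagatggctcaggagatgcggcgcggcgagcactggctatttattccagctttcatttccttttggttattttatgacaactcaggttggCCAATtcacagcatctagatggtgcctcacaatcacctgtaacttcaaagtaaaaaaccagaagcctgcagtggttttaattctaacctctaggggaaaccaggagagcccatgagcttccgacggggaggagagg

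The Hmgcs1 window holds 1 sterol regulatory element, which begins 137 bases before the start, and 3 CCAAT boxes. The Pmvk window holds 1 CCAAT box and no match to TCACNCCAC. Other forms of the sterol regulatory element were not searched. RefSeq lists another Pmvk start farther along the gene, which is not shown. Of the 31 members 25 matched the promoter table, with 34 windows. The element TCACNCCAC was found in 2.94% of these windows, all of it in Hmgcs1, against 1.05% of all 32851 windows of the same length. CCAAT was found in 61.8% of member windows (33.8% of all), the GC box GGGCGG in 70.6% (32.7% of all) and the E-box CACGTG in 14.7% (6.02% of all), each searched on both strands. The 4 motifs were counted separately, whether or not their matches overlapped. These are matches of letters and say nothing of binding.

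Pmvk, the kinase that makes mevalonate pyrophosphate, had the lowest ratio of all members. Its brightest probe (chr3:89272867-89272926, mm9) read 12.81, 13.01 and 12.86 in the tamoxifen samples of couples 1, 2 and 3 and 13.29, 13.83 and 14.19 in the oil samples. All 3 oil samples lay above all 3 tamoxifen samples, and the oil samples were the more widely spread. The log2 ratios were -0.48, -0.82 and -1.34, a mean of -0.88 ± 0.43 (SD, n = 3), or 1.84-fold lower under tamoxifen, on all 6 arrays. The unadjusted p of 0.0052 gave a limma adjusted p of 0.69. With the couple as a random replicate block over the 6 arrays the limma adjusted p was 0.054, or 0.1 with a dye term. The block fit counts the 2 arrays of a couple, which hold the same samples, with 1 correlation (0.64) for all genes. Over all alternatives the limma adjusted p of Pmvk ran from 0.054 to 0.96. The other Pmvk probe, at a separate position starting at base 89272739 of the same chromosome, gave -0.44, -0.81 and -1.44, a mean of -0.89 ± 0.50 (SD, n = 3), also without overlap of the groups. The 12 alveolar type 2 markers had median ratios of -0.12, -0.27 and -0.26 in the 3 couples. Their summed log2 level, the log2 of summed intensities, ran from 19.21 to 19.22 under tamoxifen and from 19.47 to 19.53 under oil, which did not overlap. Bright genes weigh most in such a sum, and the brightest, Sftpc, had mean levels of 17.63 under tamoxifen and 17.82 under oil. In each couple the Sftpc ratio was above 0 with tamoxifen in Cy5 and below 0 with tamoxifen in Cy3 (0.40 and -0.45 in couple 1). The part of the type 2 markers in the Pmvk ratio was not tested.

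Hmgcs1 had the next lowest mean ratio. It read 12.14, 12.62 and 12.25 under tamoxifen and 13.03, 12.61 and 12.80 under oil. Couples 1 and 3 were lower under tamoxifen while couple 2 was level, and the groups overlapped through couple 2. The log2 ratios were -0.89, 0.01 and -0.54, a mean of -0.47 ± 0.45 (SD, n = 3; limma adjusted p = 0.69), which was -0.27 without couple 1 and -0.72 without couple 2. The other Hmgcs1 probe gave -0.24, -0.03 and -0.21. The 11 alveolar macrophage markers with a probe had median ratios of -1.06, 0.17 and -0.31 in couples 1, 2 and 3, and their summed log2 level ran from 16.10 to 18.03 under tamoxifen and from 16.89 to 17.66 under oil. None of the 11 was without a reading well above background. Their part in the Hmgcs1 ratio was not tested.

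Mvk, the kinase just before Pmvk, had the highest mean ratio of the members. Its brightest probe (chr5:114910540-114910599, mm9) read 10.84, 11.14 and 10.83 under tamoxifen and 10.67, 10.79 and 10.40 under oil. Every tamoxifen sample was above every oil sample, the nearest being at 10.83 and 10.79. The ratios of 0.17, 0.35 and 0.43 gave a mean of 0.31 ± 0.13 (SD, n = 3), or 1.24-fold, above 0 on all 6 arrays (limma adjusted p = 0.69). A dimmer Mvk probe differed, with ratios of -0.22, 0.02 and 0.26 and a mean near 0 (0.02 ± 0.24; SD, n = 3), and the mean of the Mvk probes was 0.17. The kinases of consecutive steps therefore had mean ratios of opposite sign on their brightest probes, neither past the adjusted threshold, and the difference between them was not tested.

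**Figure D2:**
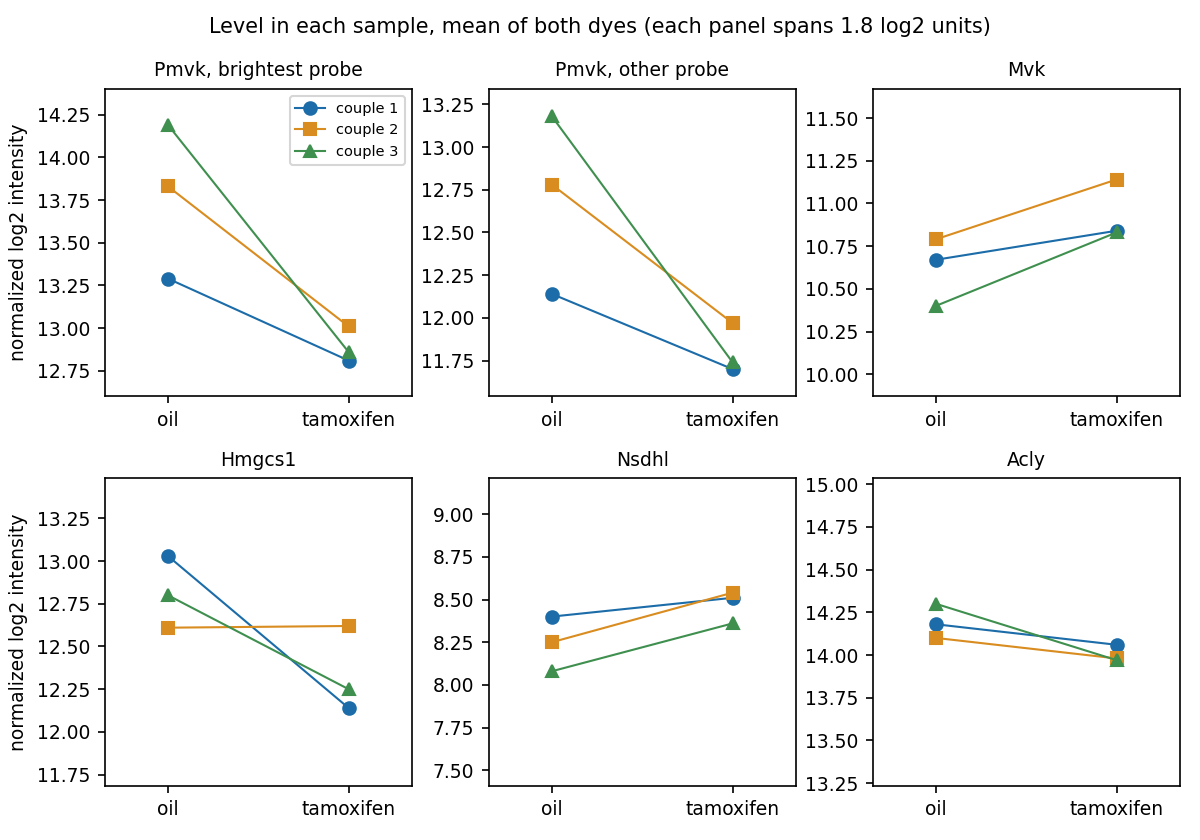
Normalized log2 intensity (y axis) in the oil and tamoxifen sample of each couple (x axis, joined by a line) is shown for 6 probes, the mean of both dyes, on axes of equal span. Both Pmvk probes lie lower under tamoxifen in all 3 couples, with oil samples of the brightest probe spread from 13.29 to 14.19 and tamoxifen samples from 12.81 to 13.01.

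The other mevalonate genes lay nearer to 0 and changed sign between couples. Mvd, the decarboxylase, was at -0.25, 0.21 and 0.24, a mean of 0.07 ± 0.27 (SD, n = 3), which was -0.02 without couple 3 and 0.00 without couple 2. Idi1, the isomerase of isoprenoid units, was at -0.15, 0.20 and 0.25 (0.10 ± 0.22; SD, n = 3). Fdps, which joins these units to farnesyl pyrophosphate, was at 0.04, 0.07 and -0.16 (-0.01 ± 0.13; SD, n = 3), and at 0.06 without couple 3. Mvd and Idi1 thus had a ratio below 0 in couple 1 and above 0 in couples 2 and 3.

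From squalene to cholesterol, small ratios above 0 prevailed in couples 2 and 3. Of the 11 genes 8 had a mean above 0 and 3 below, with a median of 0.12 and median ratios of -0.09, 0.14 and 0.17 in couples 1, 2 and 3. Ratios below 0 were found for 7 of 11 genes in couple 1 (51.5% of all genes), 1 in couple 2 (50.2%) and 2 in couple 3 (51.1%), with 8 above 0 in both couples 2 and 3 (24.8% of all genes). For 5 of them couple 1 was below 0 at the same time (11.0% of all genes). Over all 18 measured sterol genes, Stard4 and the mevalonate steps included, the median was 0.09, with 11 above 0 in both couples 2 and 3 and 7 of these below 0 in couple 1. The genes of a pathway are not independent, so these counts describe the 3 couples.

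The enzymes that make squalene, oxidise it and close it into rings had the following values. Fdft1, squalene synthase, was at -0.09, 0.11 and 0.39 (mean 0.14 ± 0.24; SD, n = 3), and Sqle, squalene epoxidase, at -0.01, 0.01 and 0.26 (0.09 ± 0.15; SD, n = 3). Lss, lanosterol synthase, was at -0.18, -0.08 and 0.06 (-0.06 ± 0.12; SD, n = 3). In each of these the highest ratio was that of couple 3.

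Cyp51 removes a methyl group from lanosterol and is a classical sterol-regulated gene. Its promoter window has 1 CCAAT box and no match to TCACNCCAC, the only form of the sterol regulatory element searched. Other forms were not searched, so their absence from the window is not shown.
Cyp51, chr5:4104698-4104947, minus strand: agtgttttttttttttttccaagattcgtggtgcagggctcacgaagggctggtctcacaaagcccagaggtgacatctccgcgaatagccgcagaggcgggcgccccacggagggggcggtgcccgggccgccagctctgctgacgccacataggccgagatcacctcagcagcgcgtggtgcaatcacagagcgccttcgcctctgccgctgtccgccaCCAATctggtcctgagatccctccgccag

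Cyp51 read 8.81, 9.09 and 8.93 under tamoxifen and 8.99, 8.94 and 8.57 under oil. The groups overlapped, with couple 1 lower and couples 2 and 3 higher under tamoxifen. The ratio was 0.11 ± 0.28 (SD, n = 3; limma adjusted p = 0.86), and -0.02 without couple 3.

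The later steps held the sterol genes with the highest means after Mvk. Nsdhl, which takes part in removing the methyl groups at carbon 4, read 8.51, 8.54 and 8.36 under tamoxifen and 8.40, 8.25 and 8.08 under oil. Each couple was higher under tamoxifen, with an overlap between the tamoxifen sample of couple 3 and the oil sample of couple 1. The ratio was 0.23 ± 0.10 (SD, n = 3), above 0 on all 6 arrays (limma adjusted p = 0.69), and a dimmer Nsdhl probe was at -0.07 ± 0.05 (SD, n = 3), the mean of the probes being 0.08. Ebp, the isomerase that shifts a ring double bond, read 12.62, 12.49 and 12.21 under tamoxifen and 12.57, 12.18 and 11.95 under oil. Levels of Ebp differed more between couples than within them, and the groups overlapped. Its ratio was 0.21 ± 0.14 (SD, n = 3; limma adjusted p = 0.69), and the other Ebp probe was at 0.14 ± 0.11 (SD, n = 3). With tamoxifen in Cy3 alone Ebp was at 0.11.

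Tm7sf2, a sterol reductase of the endoplasmic reticulum, owed its mean to a single couple. It read 9.99, 9.36 and 9.56 under tamoxifen and 9.22, 9.32 and 9.74 under oil. Couple 1 was 0.77 higher under tamoxifen, while couples 2 and 3 were at 0.05 and -0.18 and the groups overlapped. The mean of 0.21 ± 0.50 (SD, n = 3; limma adjusted p = 0.82) was -0.07 without couple 1, and the other probe gave 0.59, -0.01 and -0.03. Sc4mol (Msmo1), the methyl oxidase of the same demethylation as Nsdhl, had the opposite order, with -0.55 in couple 1 and 0.10 and 0.13 in the others. Its mean of -0.11 ± 0.39 (SD, n = 3) was 0.11 without couple 1.

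The reductases and desaturases at the end of the route gave small ratios. Dhcr7, which makes cholesterol from its immediate precursor, read 7.95, 8.02 and 8.02 under tamoxifen and 7.88, 7.86 and 7.85 under oil. The groups did not overlap, and the ratio was 0.14 ± 0.05 (SD, n = 3; limma adjusted p = 0.73), from 0.05 with tamoxifen in Cy5 alone to 0.22 with tamoxifen in Cy3 alone. Sc5d, the desaturase before it, was at -0.09, 0.29 and 0.16 (0.12 ± 0.19; SD, n = 3) on its brightest probe. The other Sc5d probe gave 0.42, 0.12 and 0.35, with no overlap of the groups. Hsd17b7, a ketoreductase of the demethylation steps, was at -0.20, 0.29 and -0.09, a mean of 0.00 ± 0.26 (SD, n = 3) that ran from -0.15 to 0.10 with 1 couple left out. Stard4, which carries sterol between membranes, was at 0.11, -0.17 and 0.04 (0.00 ± 0.15; SD, n = 3), and at 0.08 without couple 2.

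Of the regulator, sterol and fatty acid groups, fatty acid synthesis showed the widest spread between couples, and its genes had no shared direction. Of the 7 genes 4 had a mean above 0 and 3 below, the median was 0.00, and the median SD over couples was 0.35, against 0.21 for the sterol genes and 0.17 for all genes. The median ratios in couples 1, 2 and 3 were -0.04, 0.12 and -0.27. Acly was the exception with the same sign on all 6 arrays.

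Acly makes cytosolic acetyl-CoA from citrate and so feeds both routes. Its promoter window has 4 GC boxes, and no CCAAT box or match to TCACNCCAC, so no letters are in capitals.
Acly, chr11:100528001-100528250, minus strand: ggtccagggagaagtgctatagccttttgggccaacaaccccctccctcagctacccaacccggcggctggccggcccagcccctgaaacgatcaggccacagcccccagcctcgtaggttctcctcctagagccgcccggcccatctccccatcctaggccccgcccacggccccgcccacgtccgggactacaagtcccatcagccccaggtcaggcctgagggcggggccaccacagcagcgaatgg

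Acly read 14.06, 13.98 and 13.97 under tamoxifen and 14.18, 14.10 and 14.30 under oil. All oil samples lay above all tamoxifen samples, the nearest being at 14.10 and 14.06. The ratio was -0.19 ± 0.13 (SD, n = 3; limma adjusted p = 0.69), and a dimmer Acly probe was at 0.02 ± 0.13 (SD, n = 3). The Acly ratio was -0.12 without couple 3, -0.10 with median centring and -0.09 as the mean of its probes.

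Acaca, which makes malonyl-CoA and commits it to fatty acids, read 12.77, 12.77 and 12.64 under tamoxifen and 12.81, 12.65 and 13.19 under oil. The oil sample of couple 3 stood above the other samples, and the groups overlapped. The ratio of -0.16 ± 0.35 (SD, n = 3; limma adjusted p = 0.82) was 0.04 without couple 3. Couple 3 was also the lowest on the 5 other Acaca probes that had readings well above background, from -0.23 to -0.59.

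Fasn, the synthase that builds palmitate, read 16.02, 16.41 and 15.84 under tamoxifen and 15.88, 15.94 and 16.27 under oil. Couples 1 and 2 were higher under tamoxifen and couple 3 lower, with log2 ratios of 0.14, 0.47 and -0.44. The mean of 0.06 ± 0.46 (SD, n = 3; limma adjusted p = 0.95) was -0.15 without couple 2. Me1, the malic enzyme that supplies NADPH, was at -0.23, 0.36 and -0.27, which averaged -0.04 ± 0.35 (SD, n = 3). That mean was 0.05 without couple 1 and 0.07 without couple 3. Fasn, Me1 and Acaca each had their highest ratio in couple 2 and their lowest in couple 3.

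The desaturases Scd1 and Scd2, which place the double bond in oleate, had the reverse order in couple 2. Scd1 read 13.44, 13.37 and 14.20 under tamoxifen and 13.16, 13.85 and 13.99 under oil. Scd2 read 14.76, 14.47 and 15.14 under tamoxifen and 14.66, 14.96 and 14.61 under oil. Both were lower under tamoxifen in couple 2, by ratios of -0.48 and -0.50, and higher in couples 1 and 3, so the groups overlapped. The means were 0.00 ± 0.42 for Scd1 and 0.05 ± 0.51 for Scd2 (SD, n = 3; limma adjusted p = 1 and 0.97), and leaving out couple 3 gave -0.10 and -0.20. Scd1 was also at -0.13 without couple 1. The genes are near copies of each other, and probes may share signal. Elovl6, which extends palmitate to stearate, was at -0.26, 0.17 and 0.16 (0.02 ± 0.25; SD, n = 3), and at -0.05 without couple 2 and without couple 3 alike.

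**Figure D3:**
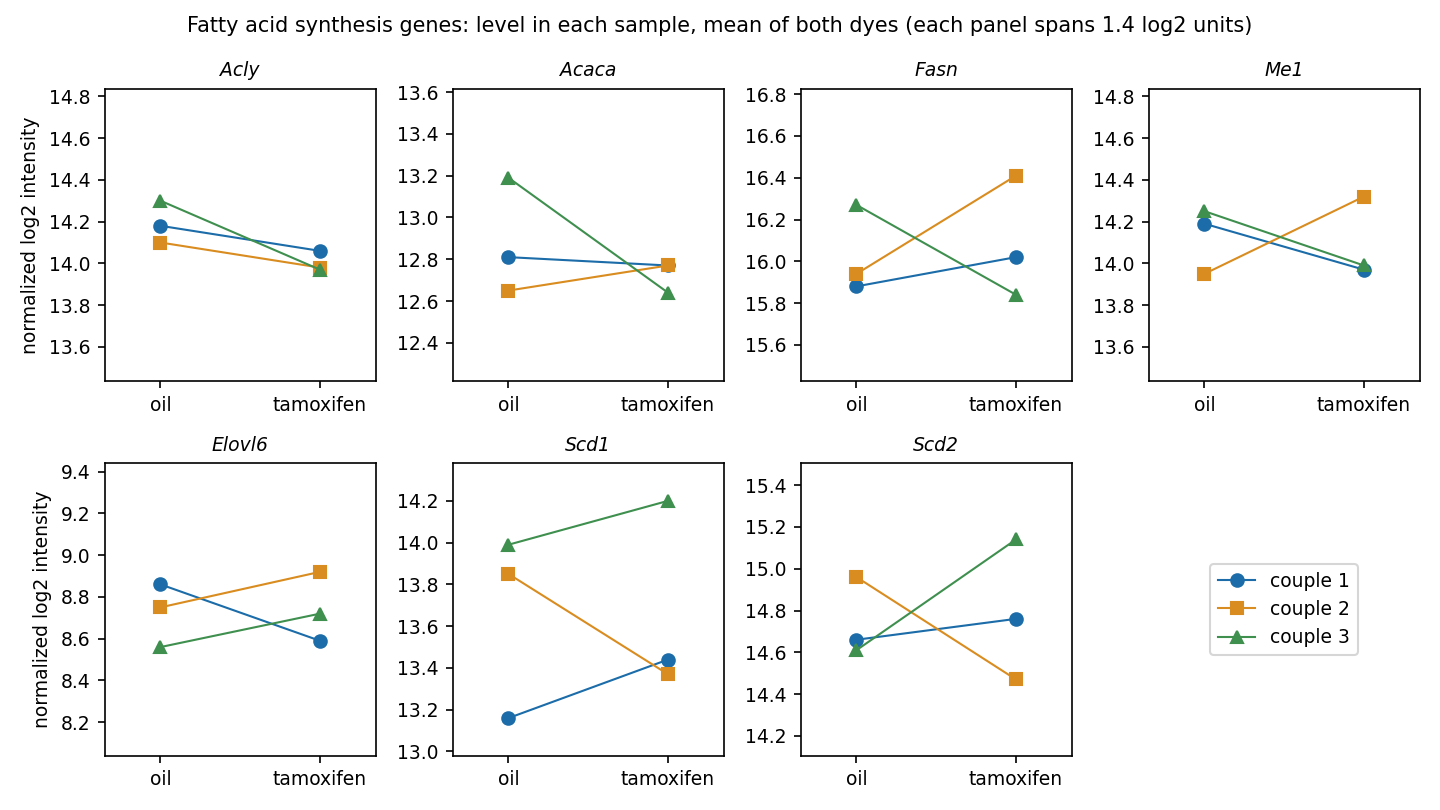
Normalized log2 intensity (y axis) in the oil and tamoxifen sample of each couple (x axis, joined by a line) is shown for the 7 fatty acid synthesis genes, the mean of both dyes, on axes of equal span. Lines cross in Fasn and Me1, where couple 2 is higher under tamoxifen and couple 3 lower, and the reverse holds in Scd2.

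The 33 other genes of lipid synthesis, uptake and export on a wider list had a median ratio of -0.01, with 15 means above 0 and 18 below and 0 past the adjusted threshold in limma. At an unadjusted p under 0.05 there were 2 higher and 4 lower, where 4.01% of all genes were lower and 7.01% were past it in either direction. The sign was the same on all 6 arrays for 8 genes, with 1 higher (6.04% of all genes) and 7 lower (7.21% of all genes). The levels of 8 genes did not overlap between groups, 7 of them lower under tamoxifen (12.3% of all genes in either direction).

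Among the proteins that act on the Srebf1 and Srebf2 products, the 2 Golgi proteases that release them had opposite ratios. Mbtps1 read 12.58, 12.59 and 12.60 under tamoxifen and 12.79, 12.79 and 12.76 under oil (-0.19 ± 0.03; SD, n = 3; limma adjusted p = 0.69). Mbtps2 read 9.62, 9.48 and 9.42 under tamoxifen and 9.37, 9.19 and 9.10 under oil (0.29 ± 0.04; SD, n = 3; limma adjusted p = 0.69). Neither pair of groups overlapped. With tamoxifen in Cy5 and in Cy3 alone Mbtps1 was at -0.29 and -0.08, and Mbtps2 at 0.28 and 0.29. The difference between the proteases was not tested.

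Genes of uptake, storage and chain extension with the lowest ratios or a steady sign were on the lower side. Elovl1, which extends very long fatty acids, read 15.97, 16.23 and 16.36 under tamoxifen and 16.89, 16.77 and 16.81 under oil. Its groups did not overlap, and its ratio of -0.64 ± 0.25 (SD, n = 3; limma adjusted p = 0.69) was the lowest of the wider list. That value depended on the dye, with -0.31 with tamoxifen in Cy5 alone, where Soat1 was lower, and -0.96 in Cy3 alone. Soat1, which esterifies cholesterol for storage, was at -0.35, -0.04 and -0.85 (-0.41 ± 0.41; SD, n = 3), with -0.19 without couple 3 and with -0.66 and -0.16 for tamoxifen in Cy5 and in Cy3 alone. Mylip, a ligase that marks the LDL receptor for degradation, was at -0.36 ± 0.16, Npc1, which moves cholesterol out of lysosomes, at -0.28 ± 0.30, and Nr1h2, an oxysterol receptor, at -0.17 ± 0.05 (SD, n = 3). Npc1 was at -0.07, -0.62 and -0.15 in the 3 couples and at -0.11 without couple 2, and Nr1h2 was at -0.28 and -0.05 with tamoxifen in Cy5 and in Cy3 alone. Thrsp and Mid1ip1, related proteins that promote fatty acid synthesis, had wide means of 0.60 ± 0.59 and 0.34 ± 0.75 (SD, n = 3), with couple 2 at -0.02 and -0.49. Thrsp was at 0.32 without couple 3, and Mid1ip1 at 0.03 without couple 1 and 0.75 without couple 2. Couple 2 was thus the low couple in these genes as in Scd1 and Scd2.

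Markers of other cells and of cell division differed widely between couples. The 12 proliferation markers had median ratios of -0.49, 0.26 and 1.08 in couples 1, 2 and 3, with 12 of 12 below 0 in couple 1 and 12 of 12 above 0 in couple 3. Their summed log2 level ran from 13.75 to 14.26 under tamoxifen and from 12.89 to 14.31 under oil. The 8 endothelial markers had medians of -0.18, 0.11 and 0.25, with summed levels from 13.44 to 13.73 under tamoxifen and 13.55 to 13.73 under oil. Both lists had the order seen in the squalene to cholesterol genes, whose medians were -0.09, 0.14 and 0.17. Their part in these ratios was not tested.

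Fibroblast markers, 8 genes, had medians of -0.12, -0.13 and -0.20, and summed levels from 13.90 to 14.62 under tamoxifen and 14.12 to 14.72 under oil. Of the 10 fat cell markers, which include the hormone gene Adipoq, 3 were never well above background (Adipoq, Pck1 and Ucp1). Only 2 of the 10 were well above background in every reading, so the summed level includes probes near background. Fat cell summed levels ran from 9.77 to 9.93 under tamoxifen and from 9.84 to 9.95 under oil. Of the 12 alveolar type 2 markers 10 had a mean ratio below 0 and 2 above, Etv5 at 0.11 and Muc1 at 0.09, with a median of -0.24. The lowest was Napsa, a protease gene, at -0.86 ± 1.07 (SD, n = 3), above 0 in couple 1. Next to it, Sftpb, a surfactant protein gene, was at -0.62 ± 0.09 and Cd36, a fatty acid carrier, at -0.68 ± 0.14 (SD, n = 3; limma adjusted p = 0.67 for each).

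**Figure D4:**
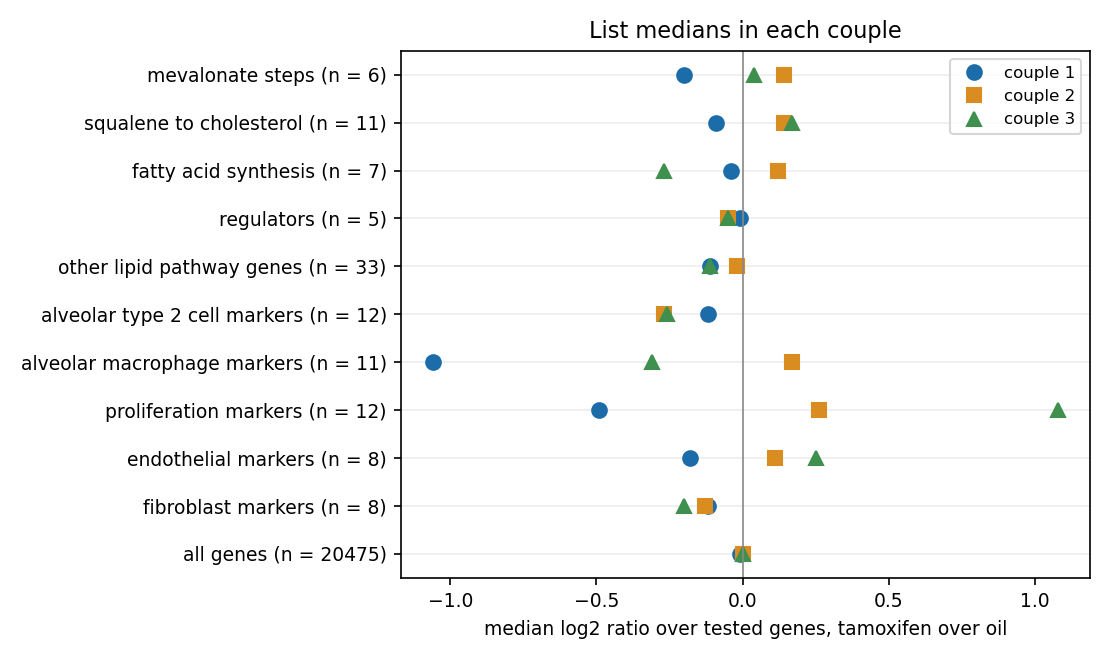
The median log2 ratio of tamoxifen over oil (x axis) is shown for each gene list (y axis, with the number of genes tested), 1 symbol per couple. The lists of the pathway stay within -0.27 to 0.17 in every couple, the proliferation markers run from -0.49 to 1.08 and the alveolar macrophage markers from -1.06 to 0.17.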

How the data were processed

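The deposited scanner files give raw spot intensity in 2 channels, per the file headers, and the submitters' processing notes name Agilent Feature Extraction 12.0.3.1 as the software. Per the file headers they also give a dye-normalized log10 ratio of Cy5 over Cy3, and the authors' deposited value table gives its log2 (slopes from 3.319 to 3.327, column medians from -0.15 to 0.14); these served as alternatives.

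In limma 3.58.1 (R 4.3.3), background was corrected by normexp with offset 50, which pulls ratios of dim probes toward 0. Arrays were loess-normalized, and control and outlier spots (89 to 132 per array, 0 saturated) left out. The brightest of a gene's probes was tested if at least 2 couples had it well above background on their 2 arrays, in either sample. Arrays were turned to tamoxifen over oil, the 2 of a couple averaged and the 3 couples tested against 0, two-sided, by lmFit and eBayes with Benjamini-Hochberg adjustment over 20475 genes (2 more lacked a spot), threshold 0.05. Levels are normalized log2 intensity after loess and Aquantile, averaged over dyes, and are not comparable between probes. The fit was tested on simulated data. All 6 arrays lay on 1 slide in 1 scan, so no batch was tested. Precision is limited by the number of couples.

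The numbers pair the samples because each couple shares its arrays. Members and gene lists were chosen with earlier results of these data known. Values per sample were given for regulators, for members with 1 sign on all 6 arrays and for the 4 highest and 4 lowest means; of the wider list, genes with 1 sign on all 6 arrays and the 3 highest and 3 lowest were chosen, of which some are not reported here; per-sample values of Dhcr7, Cyp51, Fasn, Scd1 and Scd2 were added after their ratios were seen. Probe positions are on mm9, without exon annotation of that build.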

Additional observations from a re-analysis of the deposited data

How the results depend on the processing

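Under 16 alternatives (background and dye normalization, filters, probe choice, outlier spots, dye orientation, couples left out, pairing) 0 members were past the adjusted threshold. The direction was kept in all 16 by 13 members, among them Pmvk, Hmgcs1, Mvk, Nsdhl, Scap and Acly. The filters on dim probes left member ratios as they were, as did the fits with a replicate block and with channels apart. Those alternatives could not change a direction. For Pmvk, Mvk, Nsdhl, Scap and Acly every array had the same sign. Leaving out a couple or a dye orientation therefore could not change their direction either. With the couple as a random replicate block, 56 genes and 0 members were called and Pmvk had a limma adjusted p of 0.054; with a dye term added to that fit, an alternative chosen after seeing the data, 9 genes and 0 members were called and that p was 0.1; with no replicate block and channels apart, 1 gene and 0 members were called. Of 480 member values 437 kept their direction, a count that includes the fits that could not change it. The scanner's log ratio and the deposited table gave matching member ratios and are counted separately in it. The 12 genes chosen from the wider list kept their direction in all 16, with the same limits.

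The regulator median of -0.06 was -0.11 with the mean of probes, 0.00 and -0.04 with tamoxifen in Cy5 and in Cy3 alone, and -0.09 to -0.03 with a couple left out. The median of the wider list ran from -0.08 to -0.02 with a couple left out, that of sterol genes from 0.02 to 0.15 and that of fatty acid genes from -0.15 to 0.02.

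Members whose mean changed sign with a couple left out ran from -0.15 to 0.04 (Insig1), -0.17 to 0.02 (Insig2), -0.02 to 0.23 (Mvd), -0.06 to 0.06 (Fdps), -0.02 to 0.25 (Cyp51), -0.07 to 0.41 (Tm7sf2), -0.23 to 0.11 (Sc4mol), -0.15 to 0.10 (Hsd17b7), -0.06 to 0.08 (Stard4), -0.29 to 0.04 (Acaca), -0.15 to 0.31 (Fasn), -0.05 to 0.17 (Elovl6), -0.13 to 0.24 (Scd1), -0.20 to 0.32 (Scd2) and -0.25 to 0.07 (Me1). Without a change of sign Srebf1 ran from -0.25 to -0.02, Idi1 from 0.02 to 0.22, Fdft1 from 0.01 to 0.25, Sqle from 0.00 to 0.14, Lss from -0.13 to -0.01 and Sc5d from 0.04 to 0.22.

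Other sign changes were found by dye orientation and by processing. With tamoxifen in Cy5 alone Srebf2 was at 0.00, Insig2 at 0.10, Fdft1 at -0.04, Hsd17b7 and Stard4 at 0.03 and Scd2 at -0.06. With tamoxifen in Cy3 alone Fdps was at 0.09, Fasn at -0.04 and Scd1 at -0.11. In that orientation Insig2 was at -0.29 and Fdft1 at 0.31. With the scanner's log ratio and with the deposited table Fdps and Stard4 were at 0.01 and Hsd17b7 at 0.00. With median centring Fdps was at 0.03, Hsd17b7 at 0.01, Stard4 at 0.02 and Me1 at 0.04. Hsd17b7 and Stard4 were at 0.00 with offset 0 and at 0.02 and 0.03 with the mean of probes. Apart from the couples left out, the cause was not tested. A slide block was not run, since there was 1 slide.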

Other observations

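Pmvk was set beside the genes next to it on chromosome 3, since its 2 probes gave similar ratios. Shc1, an adaptor of receptor tyrosine kinases, was at -0.23 ± 0.37 (SD, n = 3), Pygo2 at -0.09 ± 0.32 and Pbxip1 at -0.08 ± 0.33. On the other side Kcnn3 was at -0.07 ± 0.39, Adar at 0.16 ± 0.21 and Chrnb2 at 0.03 ± 0.08. Couples 2 and 3 of Shc1 were at -0.45 and -0.44 and couple 1 at 0.19, and none of the 6 neighbours was below 0 in all 3 couples. The order of couples in Pygo2 (0.25, -0.15 and -0.38) and in Adar (0.38, 0.12 and -0.04) was that of Pmvk. Chrnb2 was below the filter on dim probes. The differences from Pmvk were not tested. Mmab, which lies next to Mvk head to head and codes for an enzyme of vitamin B12 metabolism, was at 0.02, 0.11 and 0.10 (mean 0.08 ± 0.05; SD, n = 3).

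Other probes of the members gave a mixed picture. Of 30 further probes 26 were above background by the same rule, covering 19 members, and 6 of the 26 had a mean of the opposite sign to the brightest probe. They included the dimmer probes of Nsdhl and Acly, whose brightest probes had the same sign on all 6 arrays.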
